A study of Mus musculus with 15 samples.

Results

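Chemokines are small secreted proteins that guide leukocytes through tissue, and their receptors are G protein-coupled receptors on the cells that follow them. The 55 genes described here are the mouse genes whose symbols open with Ccl, Cxcl, Ccr, Cxcr or Cx3c followed by a number or letter, each read by 1 probe set with that symbol alone. They were chosen by name, 55 of 19505 gene symbols on the array, and where a gene had 2 probe sets the one with the higher mean was taken. All tests ran over the 22206 probe sets of the array. Liver RNA of 15 mice was hybridized to Clariom S mouse arrays, with 3 arrays in each of 5 groups and 1 mouse per array. All were C57BL/6 mice colonized with human gut microbiota, bred over generations from germ-free founders that received stool from a single donor. The groups drank 10% fructose with sodium benzoate (4.8 mg/kg daily), 10% fructose with sodium nitrite (0.36), 10% fructose with potassium sorbate (19), 10% fructose alone, or water. The methods have mice drinking these solutions for 11 weeks, with a start at the age of 3 weeks, while the labels put their age at 11 weeks. Each group of the study held 8 mice, males and females in equal number, but which sex went onto which array is not stated in the labels.

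In the liver, resident macrophages (Kupffer cells), sinusoidal endothelial cells, stellate cells and hepatocytes all release chemokines. Ligands are named by the spacing of their first cysteines (CC, CXC or CX3C). Homeostatic ligands such as Cxcl12 hold cells in place, while inflammatory ligands such as Cxcl1 and Ccl2 are made on stimulation through NF-kB and related factors and draw neutrophils and monocytes. In whole liver, fewer cells of a type and less RNA per cell cannot be told apart.

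Promoters are shown for the neighbouring pair Ccl9 and Ccl6, which both fell with fructose, and for Cxcl1 beside its neighbours Cxcl2 and Cxcl3, which did not pass the test. Each run is the 250 bases before the RefSeq start (GRCm38.p6), 5′ to 3′ along the gene, and capitals mark matches to the motifs GGG and TTTCC 2 bases apart (an NF-kB pattern) and TGANTCA (an AP-1 pattern) on either strand, with N for any base. The 10-base NF-kB pattern is called the GGG-TTTCC motif from here on.
Ccl9, chr11:83578637-83578886, minus strand: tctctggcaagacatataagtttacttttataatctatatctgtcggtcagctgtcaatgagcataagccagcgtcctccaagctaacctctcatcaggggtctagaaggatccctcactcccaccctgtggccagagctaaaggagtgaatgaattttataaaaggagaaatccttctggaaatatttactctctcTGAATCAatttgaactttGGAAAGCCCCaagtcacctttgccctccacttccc
Ccl6, chr11:83593088-83593337, minus strand: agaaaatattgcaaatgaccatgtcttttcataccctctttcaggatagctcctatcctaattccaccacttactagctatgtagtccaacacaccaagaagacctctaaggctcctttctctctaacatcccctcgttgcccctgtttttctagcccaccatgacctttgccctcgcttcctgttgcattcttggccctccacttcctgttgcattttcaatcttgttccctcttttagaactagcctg
Cxcl1, chr5:90890995-90891244, plus strand: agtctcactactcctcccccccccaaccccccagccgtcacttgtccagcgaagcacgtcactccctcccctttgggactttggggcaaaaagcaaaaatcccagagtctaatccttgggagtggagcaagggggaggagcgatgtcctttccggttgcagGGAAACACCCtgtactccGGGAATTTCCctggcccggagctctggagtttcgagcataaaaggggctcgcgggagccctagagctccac
Cxcl2, chr5:90903649-90903898, plus strand: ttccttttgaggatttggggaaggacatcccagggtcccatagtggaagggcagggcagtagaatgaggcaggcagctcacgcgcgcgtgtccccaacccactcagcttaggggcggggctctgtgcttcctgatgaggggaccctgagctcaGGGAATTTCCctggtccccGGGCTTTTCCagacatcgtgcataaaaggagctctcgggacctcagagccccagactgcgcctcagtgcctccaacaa
Cxcl3, chr5:90785851-90786100, plus strand: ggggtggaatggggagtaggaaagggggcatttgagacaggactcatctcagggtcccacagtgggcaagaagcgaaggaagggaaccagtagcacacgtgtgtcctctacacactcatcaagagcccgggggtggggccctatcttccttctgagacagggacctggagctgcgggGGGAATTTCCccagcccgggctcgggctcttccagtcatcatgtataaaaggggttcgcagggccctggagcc
The window of Ccl9 held 1 match to the GGG-TTTCC motif and 1 to TGANTCA, Cxcl1 and Cxcl2 held 2 matches to the GGG-TTTCC motif each, Cxcl3 held 1, and Ccl6 held none to the motifs searched. No 2 matches overlapped in these windows. RefSeq windows were matched for 40 of the 55 genes, 46 windows in all. The GGG-TTTCC motif was present in 6 of the 46 windows (13%), against 1.41% of all 32851 windows. These 6 belonged to Ccl20, Ccl9, Ccr3, Cxcl1, Cxcl2 and Cxcl3. TGANTCA was present in 10.9% of the members' windows and 6.75% of all, TTCNNNGAA (a STAT pattern) in 8.7% and 7.02%, and TTTC followed by TTTC 2 bases on (an interferon response pattern) in 6.52% and 2.98%. A match of letters is not evidence of a bound site.

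Many of these genes lay near or under background in this tissue. The background of an array was taken as the median of its 5222 negative control probes, and a gene counted as measured in a group when it lay over that median on all 3 arrays. By this count 11 of 55 members were measured with benzoate, 12 with nitrite, 9 with sorbate, 9 with fructose alone and 24 with water. Of all probe sets, 44.7%, 44.1%, 44.7%, 45% and 56.6% were measured in the same groups. Ccl6, Ccl9, Ccl20, Ccl25, Cxcl9, Cxcl12, Cxcl13 and Cxcl16 were measured in all 5 groups. Another 12 genes were measured in the water group only, namely Ccl1, Ccl4, Ccl7, Ccl24, Ccl27a, Ccl28, Ccr3, Ccr10, Cxcl1, Cxcl3, Cxcl17 and Cxcr4. The background itself was lower with water (mean 5.61) than in the other groups (6.35 to 6.53). Being measured in water only therefore need not mean a higher signal there. Ccl28 averaged 6.22 with fructose and 6.08 with water. Being measured in all 5 groups held for 14.5% of members and 40.1% of all probe sets, in water only for 21.8% and 10.6%, and in at least 1 group for 45.5% and 58.8%. No array showed a signal over background for 12 genes (21.8%, against 23.8% of all probe sets), namely Ccl5, Ccl8, Ccl19, Ccl22, Cx3cl1, Cxcl15, Ccr1l1, Ccr4, Ccr6, Ccrl2, Cxcr1 and Cxcr5.

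The water arrays stood apart from the other 12 in their controls. The negative control median averaged 6.35 ± 0.27 with benzoate, 6.53 ± 0.07 with nitrite, 6.39 ± 0.17 with sorbate, 6.44 ± 0.10 with fructose and 5.61 ± 0.02 with water (log2 signal, SD, n = 3 each). The 4 hybridization controls, spiked in equal amount onto every array, averaged 12.16, 11.86, 11.97, 12.07 and 13.02 in the same order of groups. Signals of 3 Y-linked genes were low on all 3 sorbate arrays (means of 3.39 to 4.17) and on benzoate arrays 2 and 3 (3.57 and 3.51), against 9.37 to 10.00 on the other 10 arrays. Females carry no Y chromosome, so the low arrays read as female and the other 10 as male, though the labels name no sex. Of 10 hepatocyte markers, 10 were measured in every group. The 23 very long, broadly expressed transcripts had a median difference of 2.17 (log2) for fructose minus water and the 49 ribosomal protein genes one of −1.12. The members' genes are short, with a median span of 4759 bases from first to last exon against 17781 for all genes with 1 symbol (RefSeq, introns included). Of the 4892 genes with a span of at most 6101 bases, which include 34 of the 55 members, 2.88% rose with fructose and 16.4% fell, while of the 4893 genes over 45519 bases 24.2% rose and 6.74% fell. The part of these features in the results was not tested, apart from the settings given with the processing.

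**Figure D1:**
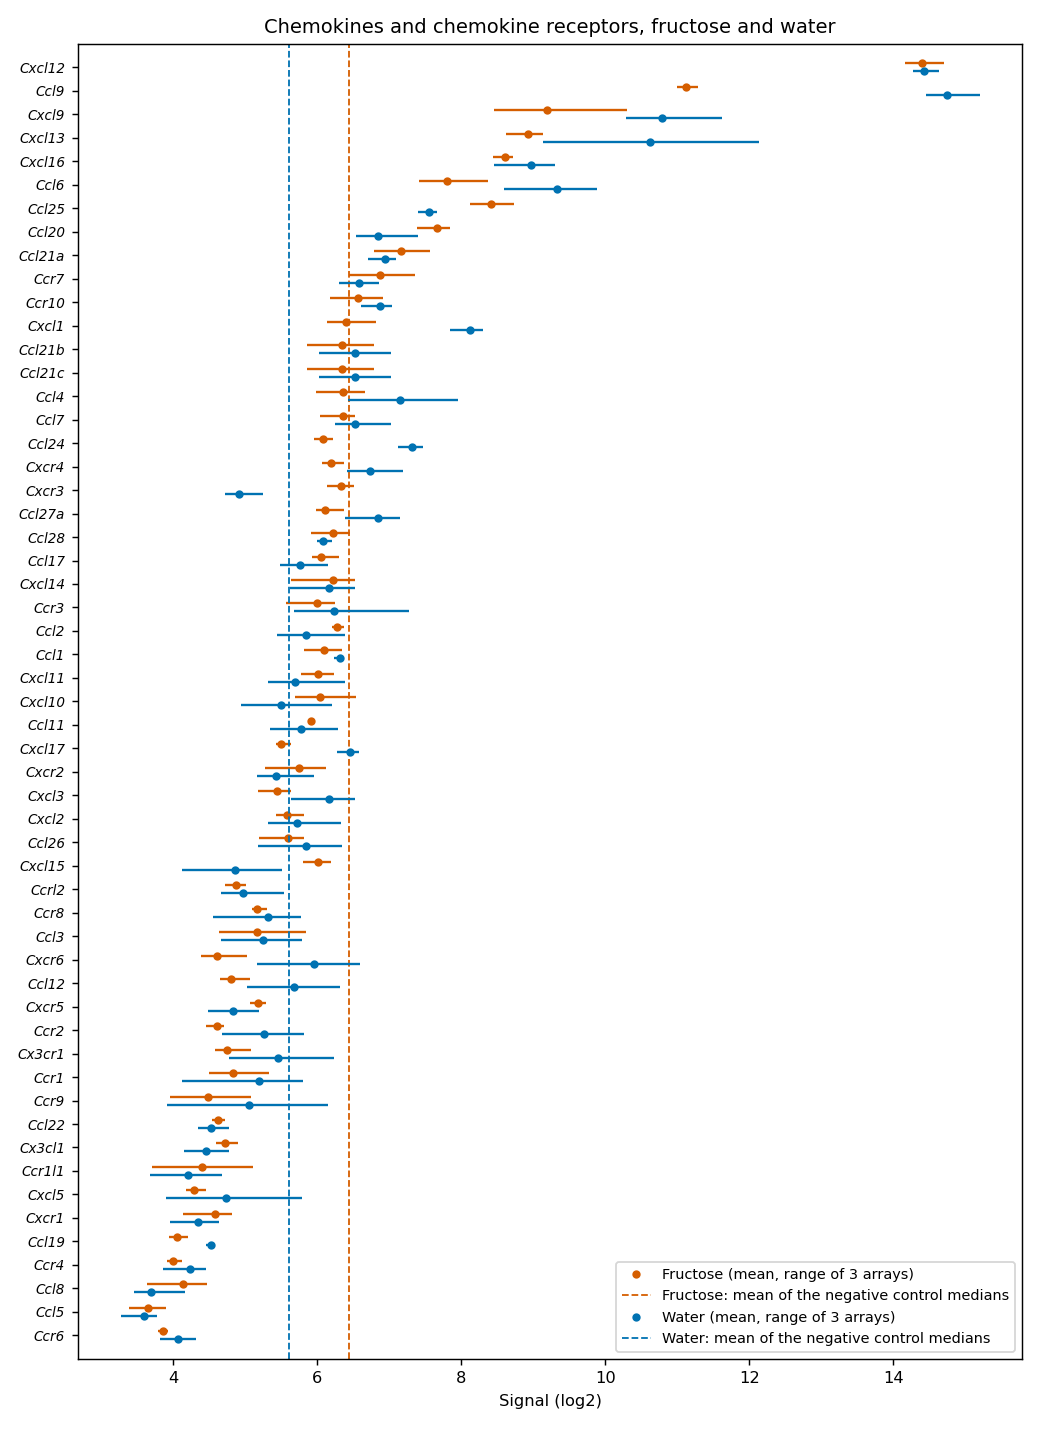
Log2 signal (x axis) of the 55 members (rows) in the fructose and water groups, with the mean as a point and the range of 3 arrays as a line, and the mean negative control median of each group as a dashed line. Ccl9 averaged 11.12 with fructose and 14.74 with water, and many members lie left of the dashed lines. Rows are ordered by mean signal, which does not rank RNA amounts between genes.

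With fructose, 13 members were called against water, and the macrophage ligand Ccl9 was 12.4-fold lower. At an adjusted p under 0.05 (limma, Benjamini-Hochberg over all probe sets), 4 members rose (7.27%, against 11.8% of all probe sets) and 9 fell (16.4%, against 12.7%). In either direction this was 23.6% of members and 24.4% of all probe sets, so the family as a whole changed about as often as other genes. The median difference of the members was −0.17 and that of all probe sets −0.12 (log2). With a fold change over 2 as well, 2 members were higher (3.64%, against 8.52%) and 7 lower (12.7%, against 7.03%). Groups did not overlap for 3 higher and 9 lower members (5.45% and 16.4%, against 15.8% and 20.9% of all probe sets).

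Ccl9 and Ccl6, macrophage-derived CC ligands of the receptor Ccr1, both fell. Ccl9 gave log2 signals of 11.00, 11.29 and 11.06 on the fructose arrays and 15.20, 14.58 and 14.45 on the water arrays. Every fructose array lay more than 3 log2 units under every water array. The difference was −3.63 (standard error 0.40, adjusted p = 4.01e-05), or 12.4-fold. Ccl6 read 8.37, 7.42 and 7.62 with fructose and 8.59, 9.89 and 9.5 with water, with no overlap though fructose array 1 and water array 1 lay close. It differed by −1.52 (standard error 0.32, adjusted p = 0.00229), or 2.87-fold. Both genes were over background on all 15 arrays. Ccr1 itself read 5.33, 4.66 and 4.50 with fructose and 5.64, 5.80 and 4.12 with water, under background on all fructose arrays.

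Some markers of Kupffer cells and macrophages also fell with fructose alone against water. Of 13 markers 0 rose and 6 fell, with a median of −0.90. Of all probe sets 11.8% rose and 12.7% fell, with a median of −0.12. The mean level of the marker list ran from 8.24 to 8.55 on the fructose arrays and from 9.15 to 9.39 on the water arrays. Its summed signal (log2) ran from 12.34 to 12.84 with fructose and from 13.90 to 14.30 with water, and 12 of the 13 markers were measured with fructose, against 13 with water. Lyz2, the macrophage lysozyme, differed by −3.35 and C1qa, a complement subunit, by −1.68. Adgre1 (F4/80) and Csf1r, the receptor for macrophage growth factor, differed by −0.07 and 0.27 and did not pass the test. Among 7 monocyte markers 2 fell and 0 rose. Against water, the median of the macrophage markers was −0.08 with benzoate, −0.7 with nitrite and −0.05 with sorbate. Ccl9 stood at −3.25, −3.39 and −2.75 in the same groups. The share of the macrophage markers in the fall of Ccl9 and Ccl6 was not tested.

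**Figure D2:**
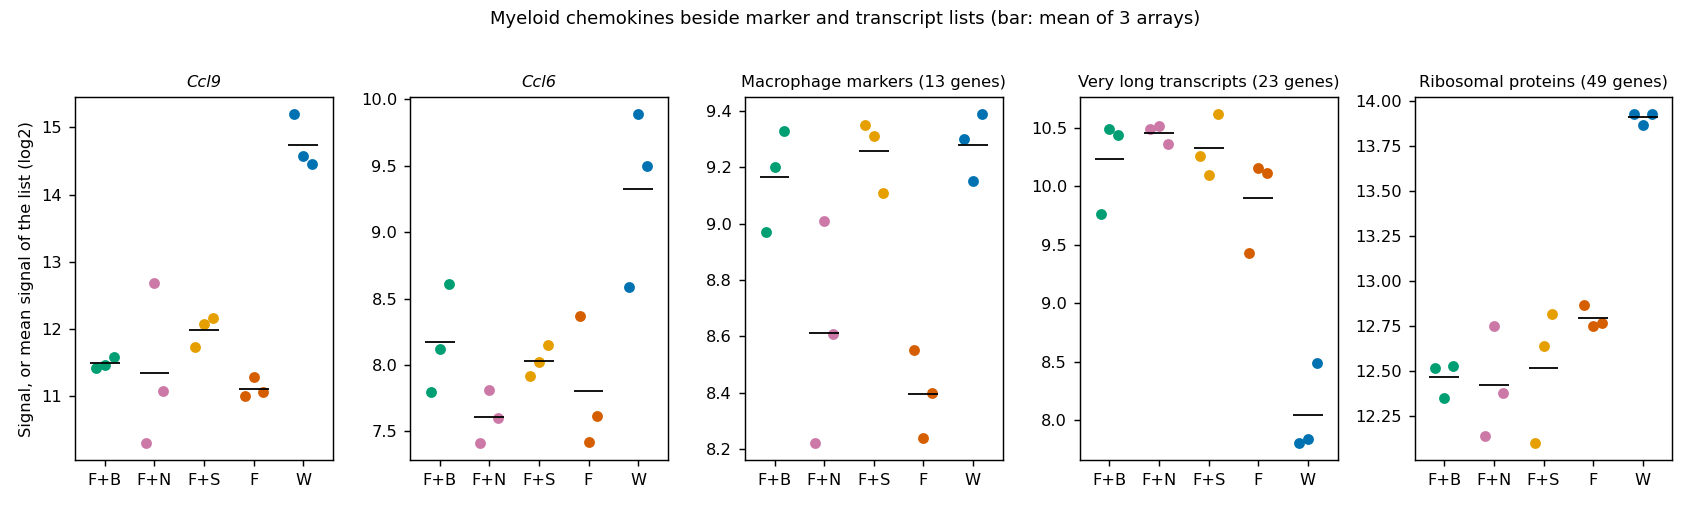
Log2 signals of Ccl9 and Ccl6 and mean log2 signals of 3 gene lists, with 1 point per array and a bar at the mean of 3 arrays; B is fructose with benzoate, N with nitrite, S with sorbate, F fructose alone and W water. Ccl9 stayed between 10.30 and 12.68 on all fructose-containing arrays. The mean of the macrophage markers on the sorbate arrays (9.11 to 9.35) and benzoate arrays (8.97 to 9.33) lay within the range of water or close to it.

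Cxcl1, a neutrophil-attracting CXC ligand of Cxcr2, fell as well. Its signals were 6.81, 6.24 and 6.13 on the fructose arrays and 7.84, 8.30 and 8.24 on the water arrays, without overlap. Only fructose array 1 lay over its background, so the fold is a bound of at least 2.89-fold (difference −1.74, standard error 0.23, adjusted p = 9.15e-05). Such a bound sets each dim array at its own negative control median where the signal lies under it. Cxcl2, Cxcl3 and Cxcl5 did not pass the test as deposited. They passed with the arrays aligned on their negative control median, a setting chosen after seeing the data. There they stood at −0.97, −1.55 and −1.26 (adjusted p = 0.00913, 0.00129 and 0.005). That alignment also moved the median of all probe sets, to −0.95 from −0.12 as deposited. Cxcl2 lay close to that shifted median. Cxcl2 read 5.50, 5.43 and 5.81 with fructose and 6.33, 5.51 and 5.32 with water (−0.14, adjusted p = 0.747), and it lay under background on all fructose arrays. Cxcl3 read 5.17, 5.52 and 5.63 with fructose and 6.52, 6.36 and 5.63 with water, where water array 3 met the fructose range (−0.73, adjusted p = 0.0951). Cxcl5 differed by −0.44 (adjusted p = 0.413) and was over background on 1 water array only. Their receptors Cxcr1 and Cxcr2 differed by 0.25 and 0.32 and did not pass the test. Cxcl15, a ligand best known from mouse lung, read 6.06, 5.80 and 6.19 with fructose and 5.51, 4.12 and 4.94 with water. It rose by 1.16 (adjusted p = 0.0121), or stood at 0.34 (adjusted p = 0.361) with that alignment, and was under background on all 6 arrays, so no fold is given. Of 9 neutrophil markers 3 fell and 0 rose (of all probe sets, 12.7% fell and 11.8% rose), and 1 was measured in the fructose group and 2 in the water group. The 3 that fell were over background on 0 fructose arrays and on 1, 1 and 0 water arrays. S100a9, measured in both groups, differed by 0.01. The summed signal of that list (log2) ran from 8.57 to 8.82 with fructose and from 8.72 to 9.3 with water.

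Ligands of other roles fell as well. Ccl24, an eotaxin that binds Ccr3 on eosinophils, read 5.96, 6.08 and 6.22 with fructose and 7.36, 7.47 and 7.12 with water. The groups did not overlap, and the fall was at least 1.84-fold (−1.23, standard error 0.23, adjusted p = 0.00105). Ccr3 read 6.24, 5.57 and 6.19 with fructose and 7.27, 5.74 and 5.67 with water. Its groups overlapped (adjusted p = 0.674). Cxcl17, a ligand of mucosal surfaces, read 5.63, 5.42 and 5.44 with fructose and 6.58, 6.53 and 6.27 with water. It was under background with fructose, which leaves a bound of at least 1.02-fold (−0.96, adjusted p = 0.00732). Ccl12, a mouse monocyte attractant that binds Ccr2, read 5.06, 4.65 and 4.68 with fructose and 5.69, 6.31 and 5.03 with water, and the groups overlapped (−0.88, adjusted p = 0.0308). It was over background on 0 fructose arrays and 2 water arrays, so no fold is given. Ccl7, another monocyte attractant, read 6.04, 6.52 and 6.5 with fructose and 6.25, 7.03 and 6.3 with water (−0.18, adjusted p = 0.648). Ccl4, an inflammatory ligand of myeloid and T cells, read 6.67, 5.98 and 6.42 with fructose and 7.05, 7.95 and 6.43 with water, and its groups overlapped (−0.79, adjusted p = 0.0868). The other inflammatory ligands Ccl2, Ccl3, Ccl5, Ccl8, Ccl11 and Ccl26 differed by −0.26 to 0.44, none of which passed the test.

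Cxcl9 and Cxcl13 were the 2 called ligands with wide spread. Cxcl9, which interferon gamma induces and which draws T cells through Cxcr3, read 10.30, 8.45 and 8.81 with fructose and 11.62, 10.47 and 10.29 with water. Fructose array 1 lay within the range of water (3.05-fold lower mean, −1.61, standard error 0.52, adjusted p = 0.0323). Cxcl10 and Cxcl11, which share its receptor, differed by 0.55 and 0.32 and did not pass the test. Cxcl14 and Cx3cl1, of other CXC and CX3C type, differed by 0.05 and 0.27, also without passing. Cxcl13, which guides B cells through Cxcr5, read 9.13, 8.62 and 9.05 with fructose and 9.13, 10.61 and 12.14 with water. Water array 1 equalled the highest fructose array, and the mean was 3.23-fold lower with fructose (−1.69, standard error 0.50, adjusted p = 0.0207). None of 6 B cell markers changed or was measured in either group.

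Ccl25 and Ccl20, ligands of gut-homing Ccr9 and of Ccr6, were the 2 measured ligands that rose. Ccl25 read 8.12, 8.74 and 8.40 with fructose and 7.66, 7.58 and 7.40 with water, without overlap (1.83-fold, 0.87, standard error 0.24, adjusted p = 0.0123). Ccl20 read 7.39, 7.74 and 7.84 with fructose and 6.60, 7.40 and 6.54 with water, where water array 2 reached the fructose range (1.75-fold, 0.81, standard error 0.28, adjusted p = 0.0401). With the arrays aligned on their negative control median Ccl25 stood at 0.05 and Ccl20 at −0.02, and neither was called. This alignment moves all differences down together, the median of all probe sets to −0.95, against −0.12 as deposited, and these values of Ccl25 and Ccl20 follow from that shift. In the same setting Ccl9 stood at −4.45 and Cxcl1 at −2.56. Among the other homeostatic and tissue ligands, Ccl27a, a skin-associated one, read 6.37, 5.98 and 5.98 with fructose and 7.01, 7.15 and 6.39 with water, just short of overlap (−0.74, adjusted p = 0.086). Ccl1 read 6.35, 6.13 and 5.81 with fructose and 6.35, 6.36 and 6.23 with water (−0.22, adjusted p = 0.649). Ccl17, Ccl19, Ccl22 and Ccl28 ran from −0.48 to 0.3, and none passed the test.

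The window of Ccl20 is shown because it also holds the NF-kB pattern.
Ccl20, chr1:83116516-83116765, plus strand: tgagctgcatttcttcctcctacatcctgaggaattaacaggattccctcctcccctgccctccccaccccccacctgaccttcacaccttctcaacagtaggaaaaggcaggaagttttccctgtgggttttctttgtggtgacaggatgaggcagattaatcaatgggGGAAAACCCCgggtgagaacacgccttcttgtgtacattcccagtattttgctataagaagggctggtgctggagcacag
Capitals mark 1 match to the GGG-TTTCC motif, on the opposite strand.

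Among 18 receptors 1 rose and 1 fell (of all probe sets, 11.8% rose and 12.7% fell). Cxcr3, the receptor of Cxcl9 on activated T and NK cells, read 6.34, 6.13 and 6.51 with fructose and 4.72, 4.78 and 5.25 with water, without overlap. It rose by 1.41 (standard error 0.26, adjusted p = 0.000978), and stood at 0.59 (adjusted p = 0.0566) when arrays were aligned on the negative controls. No fold is given, since no water array was over background and the fructose mean of 6.33 lay under that group's mean background of 6.44, with 2 of 3 fructose arrays over their own. Cxcr6, carried by liver-resident lymphocytes, read 4.41, 4.38 and 5.02 with fructose and 6.59, 6.10 and 5.16 with water (−1.34, adjusted p = 0.00733). It was over background on 0 fructose arrays and 2 water arrays, so no fold is given. Cxcl16, its ligand, read 8.72, 8.44 and 8.67 with fructose and 9.14, 8.46 and 9.30 with water (−0.35, adjusted p = 0.372). Of 8 T cell markers 3 fell, among them Cd3g (−1.48), and of 8 NK cell markers 3 fell, among them Gzma (−1.51). None rose in either list, and 2 T cell and 0 NK cell markers were measured with fructose, against 3 and 4 with water. Summed signals (log2) ran from 9.27 to 9.48 with fructose and from 9.47 to 10.29 with water for the T cell list, and from 8.36 to 8.38 and from 8.93 to 9.5 for the NK cell list. The 11 CC receptors had a median of −0.22 with none called, among them Ccr2 (−0.65), Ccr9 (−0.57), Ccr4 (−0.23), Ccr6 (−0.22), Ccr8 (−0.15), Ccrl2 (−0.09) and Ccr1l1 (0.2). Ccr10, the receptor of Ccl27a and Ccl28, read 6.91, 6.18 and 6.62 with fructose and 6.96, 7.04 and 6.61 with water (−0.3, adjusted p = 0.456). Ccr7, which guides lymphocytes to lymph nodes, read 6.82, 6.44 and 7.36 with fructose and 6.57, 6.3 and 6.86 with water (0.3, adjusted p = 0.471), and its groups overlapped. Cxcr5 and the fractalkine receptor Cx3cr1 belong to the other receptors. Cx3cr1 read 4.58, 4.58 and 5.08 with fructose and 5.35, 6.23 and 4.78 with water (−0.71, adjusted p = 0.122), and Cxcr5 differed by 0.35.

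Cxcl12, the homeostatic ligand of Cxcr4 made by stromal cells, read 14.17, 14.70 and 14.33 with fructose and 14.27, 14.36 and 14.64 with water. Its difference was −0.03 with a 95% interval from −0.55 to 0.5. With the arrays aligned on their negative controls it stood at −0.85 (adjusted p = 0.00783), where the median of all probe sets stood at −0.95. Of the cells that make it, sinusoidal endothelial cells had 5 markers of 15 that rose and 1 that fell, and stellate cells 3 of 9 that rose and 1 that fell. Of 8 dendritic cell markers 1 fell, and of 7 cholangiocyte markers 2 fell. Of all probe sets, 11.8% rose and 12.7% fell. Cxcr4 read 6.07, 6.14 and 6.37 with fructose and 6.59, 7.19 and 6.42 with water, without overlap (−0.54, adjusted p = 0.15). Ccl21a, a lymphatic ligand of Ccr7, read 6.79, 7.12 and 7.56 with fructose and 6.71, 7.10 and 7.02 with water (0.22, adjusted p = 0.587), and Ccl21b and Ccl21c, near-identical copies, carried equal values on every array and cannot be told apart.

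**Figure D3:**
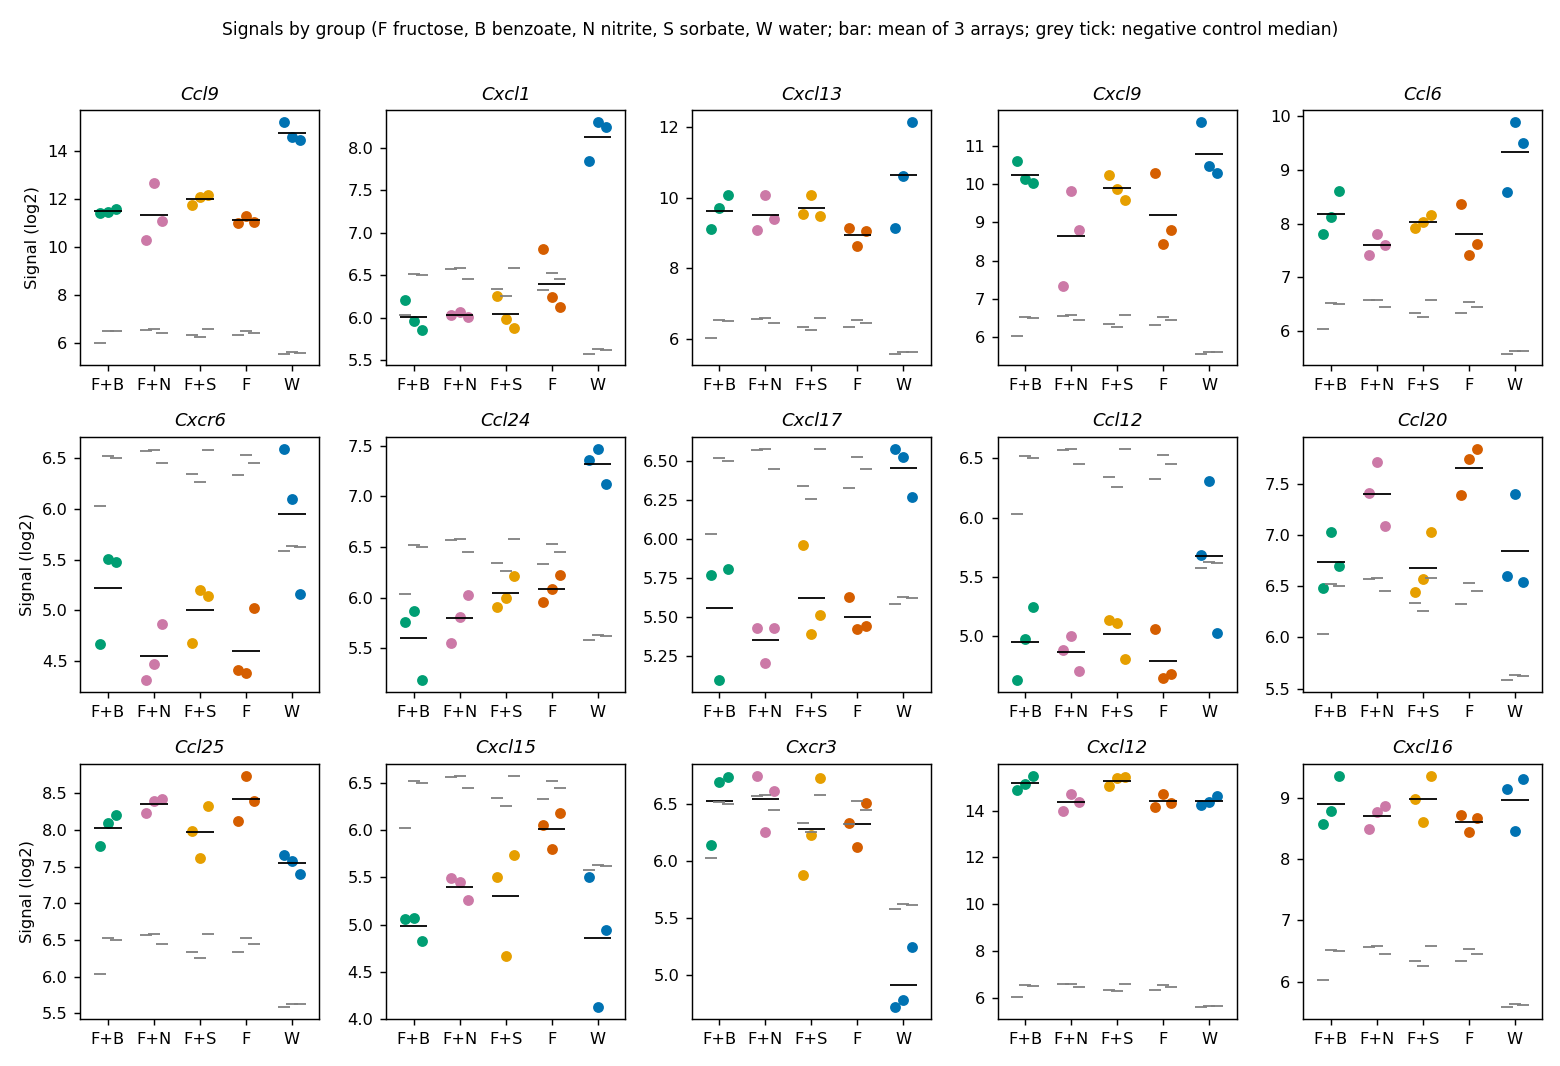
Log2 signals (y axis, own scale in each panel) of the 13 members called in fructose minus water and of Cxcl12 and Cxcl16, with 1 point per array, a bar at the mean of 3 arrays and a grey tick at the array's negative control median. B is fructose with benzoate, N with nitrite, S with sorbate, F fructose alone and W water. The 3 water arrays of Ccl9 lie between 14.45 and 15.20, above all other arrays.

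Within runs of neighbouring genes, only some members passed the test. In the chromosome 11 run Ccl5, Ccl9, Ccl6, Ccl3 and Ccl4 (at most 3 protein-coding genes between neighbours, RefSeq), Ccl9 and Ccl6 fell while the other 3 ran from −0.79 to 0.05 and did not pass the test. In the chromosome 5 run Cxcl5, Cxcl3, Cxcl15, Cxcl1 and Cxcl2, Cxcl1 fell and Cxcl15, its neighbour, rose. Cxcl15 lay under background on every array, and its rise was not called with the arrays aligned on their negative controls. One of 6 genes was called in each of the runs around Ccl2 on chromosome 11 and around Ccr1 on chromosome 9, Ccl12 and Cxcr6.

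**Figure D4:**
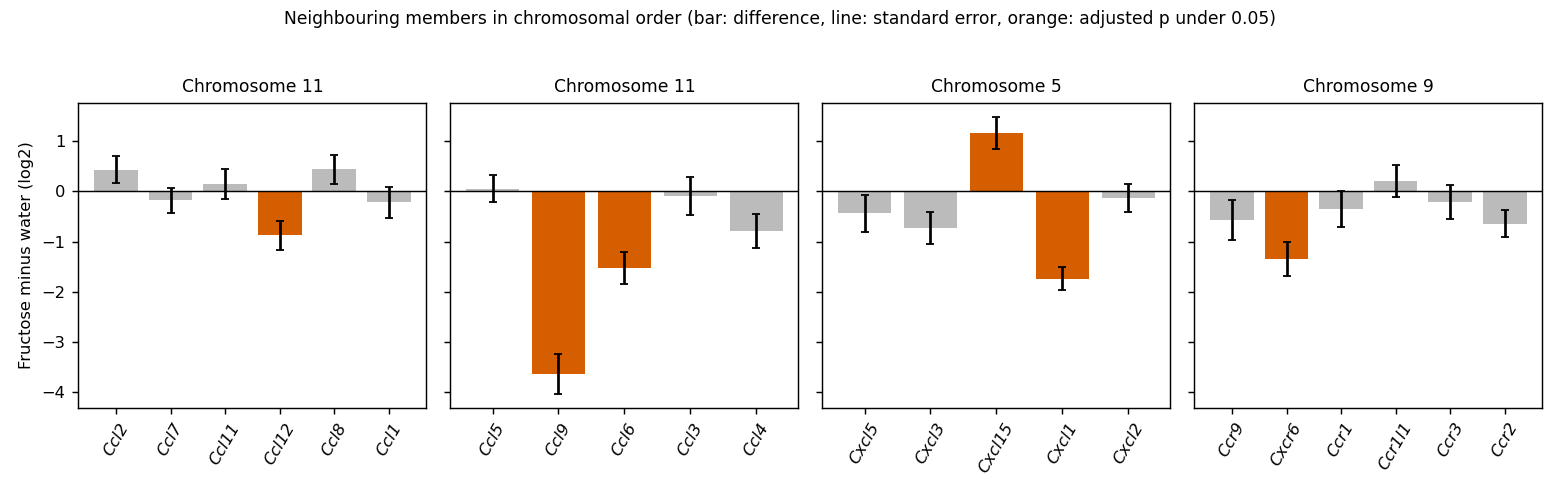
Log2 differences of fructose minus water (bars, with the standard error as a line) for 4 runs of neighbouring members in chromosomal order, with called genes in orange. Ccl9 (−3.63) and Ccl6 (−1.52) stand beside Ccl5 (0.05) and Ccl3 (−0.09).

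Genes around the chemokines were called in both directions, 4 of 25, 4 of 21, 5 of 13 and 1 of 8 in 4 lists, against 24.4% of all probe sets, and no list was tested as a whole. Of 25 signalling and migration genes 2 rose, the G protein subunit Gnai3 (0.89) and Dock2 (0.99), and 2 fell, Rgs1 (−1.32) and Rgs2 (−1.21), which dampen G protein signals. Rgs2 was over background on 0 fructose arrays and 2 water arrays, so its size is not given as a fold. Of 21 upstream inducers 2 rose, Stat3 (1.14) and the NF-kB subunit Rela (1.09), and 2 fell, Il6 (−0.83, listed under background in both groups) and Cebpd (−0.82). Of 13 proteins that cleave or bind chemokines 2 rose, Mmp14 (1.74) and Adam10 (0.61), and 3 fell, among them the proteases Mmp9 (−1.16) and Mmp12 (−0.94), with Mmp9 over background on 0 fructose arrays and 2 water arrays. Of 8 atypical receptors and ligands outside the name rule 1 rose, the scavenger Ackr2 (0.77).

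No member passed an adjusted p under 0.05 in any comparison of a preservative with fructose alone. Of all probe sets 0.0135% passed with benzoate, 0% with nitrite and 0.635% with sorbate. At an unadjusted p under 0.05 there were 3 members with benzoate (5.45%, against 9.37% of all probe sets), 1 with nitrite (1.82%, against 5.2%) and 5 with sorbate (9.09%, against 13.4%). With a fold change over 2 as well, benzoate kept 1 lower member, Cxcl15 (1.82%, against 0.554%). Groups did not overlap for 4 higher and 5 lower members with benzoate (7.27% and 9.09%, against 8.27% and 8.98% of all probe sets), 1 and 3 with nitrite (1.82% and 5.45%, against 8.31% and 7.89%) and 5 and 5 with sorbate (9.09% each, against 12.3% and 10.8%).

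With sorbate, Cxcl12 and Ccl20 had the lowest p of the members, with benzoate Ccl20, Cxcl15 and Cxcl12 in that order, and with nitrite Ccrl2 (unadjusted p = 0.0151 in the limma fit). Cxcl12 read 14.88, 15.14 and 15.50 with benzoate, 14.01, 14.70 and 14.38 with nitrite and 15.05, 15.39 and 15.45 with sorbate, against 14.17, 14.70 and 14.33 with fructose. All benzoate and sorbate arrays lay over all fructose arrays. The difference was 0.77 with benzoate (95% interval 0.25 to 1.3, adjusted p = 0.359), −0.04 with nitrite (−0.56 to 0.49, adjusted p = 0.996) and 0.89 with sorbate (0.37 to 1.42, adjusted p = 0.115). Ccl20 read 6.48, 7.03 and 6.70 with benzoate, 7.41, 7.71 and 7.09 with nitrite and 6.44, 6.57 and 7.03 with sorbate, against 7.39, 7.74 and 7.84 with fructose. Here the benzoate and sorbate arrays lay under all fructose arrays, at −0.92 (adjusted p = 0.309) and −0.98 (adjusted p = 0.117). With array weights in the fit both genes passed for sorbate, Cxcl12 at 0.88 (adjusted p = 0.0442) and Ccl20 at −1.03 (adjusted p = 0.026).

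The low Y-linked signals fall on the same arrays. With the Y-linked mean as a covariate, sorbate minus fructose stood at 0.54 for Cxcl12 (adjusted p = 0.845) and −1.41 for Ccl20 (adjusted p = 0.584). All sorbate arrays were low in Y-linked signal, and all fructose and water arrays were high. Sorbate and sex, as read from these genes, cannot be told apart against fructose or water, for any member or marker. Benzoate array 1, whose Y-linked mean was 10.00, read 14.88 for Cxcl12 and 6.48 for Ccl20. The nearest fructose arrays read 14.7 and 7.39. From 1 array, benzoate and the Y-linked level cannot be told apart.

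Ccl9 read 11.42, 11.47 and 11.59 with benzoate, 10.30, 12.68 and 11.08 with nitrite and 11.74, 12.07 and 12.17 with sorbate, against 11.00, 11.29 and 11.06 with fructose. The differences were 0.38 (95% interval −0.47 to 1.22), 0.24 (−0.61 to 1.08) and 0.88 (0.03 to 1.72, adjusted p = 0.352 for sorbate). Of the Kupffer and macrophage markers 3 rose with sorbate relative to fructose, among them Cd5l (1.74) and Csf1r (1.20), while 0 passed with benzoate or nitrite. Of all probe sets 0.635% passed with sorbate, 0.0135% with benzoate and 0% with nitrite. The median difference of the list from fructose was 0.81 with benzoate, 0.27 with nitrite and 0.83 with sorbate. Cd5l averaged 11.37 with benzoate and 11.35 with sorbate, against 9.62 with fructose. Csf1r averaged 10.92 with benzoate and 11.1 with sorbate, against 9.9 with fructose. Cxcl9 stood at 1.06 with benzoate, −0.53 with nitrite and 0.71 with sorbate, none of which passed the test. Ccrl2, a non-signalling receptor that binds chemerin, stood at 0.53, 0.75 and 0.71 and was under background on all 15 arrays.

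**Figure D5:**
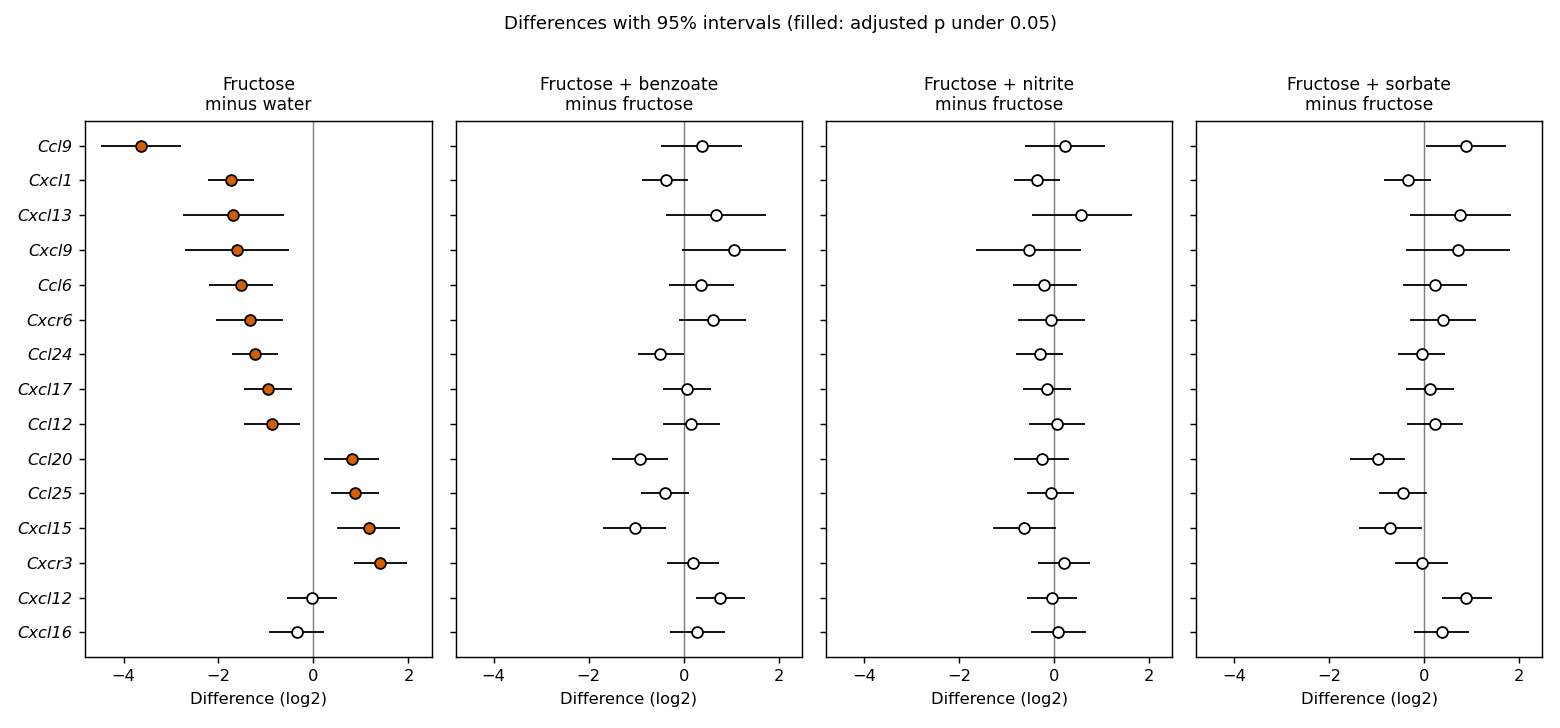
Log2 differences (x axis) with 95% intervals for the 13 members called in fructose minus water and for Cxcl12 and Cxcl16, in 4 comparisons; filled points passed an adjusted p under 0.05. All 13 filled points are in the comparison with water, and none of the 3 preservative panels holds one.

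Against water, the preservative groups shared the 3 water arrays with the fructose group, so their values are set side by side without a test of likeness. With benzoate 2 members rose and 9 fell (3.64% and 16.4%, against 15.6% and 18.7% of all probe sets). With nitrite 2 rose and 12 fell (3.64% and 21.8%, against 16% and 18.8%), and with sorbate 2 rose and 9 fell (3.64% and 16.4%, against 16.7% and 19.8%). In either direction, 34.3%, 34.8% and 36.5% of all probe sets were called. With a fold change over 2 as well, 1 member was higher and 6 lower with benzoate (1.82% and 10.9%, against 11.6% and 10.2%), 1 and 9 with nitrite (1.82% and 16.4%, against 11.6% and 10.8%) and 1 and 4 with sorbate (1.82% and 7.27%, against 12.1% and 10.7%). The unadjusted p with that fold gave equal counts for benzoate (against 11.7% and 10.5%) and sorbate (against 12.3% and 10.9%). With the arrays aligned on their negative controls 1, 1 and 0 members rose with benzoate, nitrite and sorbate. Ccl9 differed by −3.25, −3.39 and −2.75 and Cxcl1 by −2.12, −2.09 and −2.09 in benzoate, nitrite and sorbate. All 12 arrays with fructose lay under all water arrays for both genes. Cxcr3 rose in each, at 1.61, 1.63 and 1.36, while it was over background on 3, 2 and 1 of these arrays and on 0 water arrays, so these sizes are not folds. Cxcl12 rose with benzoate (0.75, adjusted p = 0.0281) and sorbate (0.87, adjusted p = 0.0118), and stood at −0.06 with nitrite. Of 15 sinusoidal endothelial markers 10 rose with benzoate, 10 with nitrite and 12 with sorbate (medians of 1.09, 0.88 and 1.20), and 1 fell in each group. The part of these markers in the rise of Cxcl12 was not tested. With the Y-linked mean as a covariate, 5 members were called with benzoate and 2 with sorbate, against 11 each without it. Only the benzoate group held both high and low Y-linked arrays, so this fit cannot separate treatment from the Y-linked level.

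Some members were called only in a comparison of a preservative group with water. Ccl27a and Cxcr4 fell in all 3 preservative groups, Ccl27a at −1.14 with benzoate, −0.94 with nitrite and −0.99 with sorbate, and Cxcr4 at −0.81, −0.83 and −0.83. Ccl4 fell with benzoate (−1.09) and sorbate (−0.92), Ccl1 with benzoate (−0.84), and Cxcl3 (−1.06) and Cx3cr1 (−1.10) with nitrite. Ccl1 was over background on 0 benzoate arrays and Cxcl3 and Cx3cr1 on 0 nitrite arrays, against 3, 3 and 1 water arrays, and none of these 3 falls has a fold bound over 1. The same members stood at −0.74 (Ccl27a), −0.54 (Cxcr4), −0.79 (Ccl4), −0.22 (Ccl1), −0.73 (Cxcl3) and −0.71 (Cx3cr1) in fructose minus water.

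Between the preservatives, 0 members passed an adjusted p under 0.05 in any of the 3 pairs, while 0%, 0.369% and 0% of all probe sets did for sorbate minus benzoate, sorbate minus nitrite and benzoate minus nitrite. At an unadjusted p under 0.05 there were 0, 5 and 3 members (0%, 9.09% and 5.45%, against 3.45%, 9.25% and 5.3% of all probe sets). Cxcl12 was 0.93 higher with sorbate than with nitrite (95% interval 0.41 to 1.46, adjusted p = 0.149). Sorbate minus benzoate gave 0.12 for Cxcl12 (−0.40 to 0.65). Doses differed between the preservatives.

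Among the 13 members called in fructose minus water, 7 kept the call without any 1 array of the groups compared: Ccl6, Ccl9, Ccl24, Cxcl1, Cxcl17, Cxcr3 and Cxcr6. Ccl25 was lost without fructose array 2 (adjusted p = 0.0735). Cxcl15 was lost without water array 2 (0.0725) or fructose array 3 (0.0535). Cxcl13 was lost without water array 3 (−0.93, adjusted p = 0.088), fructose array 2 (0.0795) or fructose array 3 (0.0501), Cxcl9 without water array 1 or fructose array 2 or 3 (0.116 to 0.15), and Ccl12 and Ccl20 in 4 of 6 such fits each. With the hybridization controls as a covariate, 0 members passed, while Ccl9 stood at −3.55 (adjusted p = 0.393) and Cxcl1 at −1.45 (adjusted p = 0.434).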

How the data were processed

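Liver RNA was measured on 15 Clariom S mouse arrays in 5 groups of 3, taken from the labels. Per the methods, the authors made the deposited log2 signals, 1 per probe set, with SST-RMA (a robust multi-array average after a signal transformation) in the Transcriptome Analysis Console, while RMA and Expression Console 1.4 are also named by the submitters' processing notes. Such values are normalized between arrays, which hides differences in total RNA. Of 28846 entries, 6640 control probes were left out and 22206 probe sets were tested without a filter. limma 3.58.1 (R 4.3.3 with data.table, version 1.17.8) fitted 1 mean per group to all 15 arrays, with Benjamini-Hochberg adjustment over all probe sets. A member was called at an adjusted p under 0.05 with any fold, and the methods' added fold change over 2 was an alternative. Intervals are 95% intervals of the fit. The members and gene lists were chosen with earlier results of these data known. Every member is named, with per-array values for those called in a comparison with fructose or water and for up to 3 members of each role that had the highest mean and were over background on all arrays of at least 1 group. From each other list at most the 2 largest rises and 2 largest falls among called genes are named, beside defining markers given by value. Promoters and gene spans come from RefSeq (GRCm38.p6). The fit was tested on simulated data. There is no read depth, so precision rests on the number of arrays. Replicate numbers in the titles did not pair the arrays (correlations of same-numbered deviations of −0.08 to 0.22). Alternatives were quantile normalization, median centring, a filter at the 30th percentile, single-symbol probe sets, trended or robust variances, array weights, covariates, a replicate block, only the groups compared, arrays left out, and the 75th percentile of the negative controls as background.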

Additional observations from a re-analysis of the deposited data

How the results depend on the processing

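Of the results for single members, 563 kept their direction and side of the threshold, 50 lost the call, 17 gained it and 1 crossed 0. In fructose minus water, 13 members were called. The counts in that comparison and for benzoate, nitrite and sorbate minus water (11, 14 and 11) became 0 in all 4 with the hybridization controls as a covariate, which overlap with the treatment, and 4, 6, 6 and 5 without water arrays 1 and 2, where the lone water array is assumed to vary like the other groups. With arrays aligned on the negative control median, chosen after seeing the data, they were 38, 36, 43 and 41, and Ccl20 stood at −0.02 (adjusted p = 0.954), since this alignment lowers all differences from water. With the Y-linked mean as a covariate, benzoate minus water gave 5 and sorbate minus water 2, benzoate minus water gave 5 in a fit of those 2 groups alone, and a fold change over 2, with adjusted or unadjusted p, left 7 and 5. Only the benzoate group held both high and low Y-linked arrays, so that covariate cannot decide why calls were lost. The cause of the other losses was not tested. Against fructose, 1 member passed with benzoate at an unadjusted p under 0.05 and a fold change over 2 (Cxcl15), and 2 with sorbate under array weights. Leaving out each array in turn gave 8 to 18 members for fructose minus water (8 without fructose array 2 or 3), 7 to 20 for benzoate (7 without water array 2 or benzoate array 2, 20 without water array 3), 10 to 19 for nitrite and 6 to 18 for sorbate minus water (6 without sorbate array 2, 18 without water array 3), and 0 to 0 against fructose. The replicate block changed no call and gave 13 members for fructose minus water, 11, 14 and 11 for the preservatives minus water and 0 against fructose. Counts of measured members fell to 7 with benzoate, 5 with nitrite and 9 with water at the 75th percentile of the negative controls. Most members lie near background, and the negative control median itself differed between water and the other groups. The part of that shift in the differences was not tested.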
